A study of Rattus norvegicus with 56 samples.

Results

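The miR-30 family was examined here as its 5 members with a 5p arm in the count table, rno-miR-30a-5p, rno-miR-30b-5p, rno-miR-30c-5p, rno-miR-30d-5p and rno-miR-30e-5p, which are 5 of 367 mature rat miRNAs listed. Members were taken by name. The family was singled out because its members lay on opposite sides of 0 at 1 m, so the values at 1 m are a description without a test. Small RNA was sequenced from the hippocampus of 28 rats after traumatic brain injury by fluid percussion (TBI) and 28 rats after sham surgery, with 4 TBI and 4 sham rats at each of 24 h, 2 w, 1 m, 2 m, 3 m, 6 m and 1 y. Each library is labelled as a separate sample of hippocampal tissue. The strain, sex and age of the rats were not given in the sources used here, and later intervals also mean older rats.

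A miRNA guides the silencing complex to messenger RNAs mainly through its seed, bases 2 to 8 from the 5′ end, which pairs with a matching site in the target. Members of a family share the seed and differ in the rest of the mature sequence, so many of their predicted targets are the same. The miR-30 family is abundant in many tissues including brain. As background, miR-30a has been described as a repressor of Becn1, an autophagy gene, and of Bdnf, a neurotrophin. miR-30c has been described as a repressor of Ctgf, a matrix protein, and miR-30b and miR-30d as repressors of Galnt7, an enzyme of protein glycosylation. miR-384-5p, which is named outside the family, has been linked to the maintenance of synaptic potentiation.

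The mature sequences below are shown because the comparison concerns miRNAs with a common seed, which is in capitals. RefSeq held a mature sequence for 331 of the 367 names and for 3 of the 5 members, and coordinates are on GRCr8, while the counts name no genome build. The members without an entry were rno-miR-30b-5p and rno-miR-30d-5p.
rno-miR-30a-5p (Mir30a, chr9:33233946-33233967, plus strand): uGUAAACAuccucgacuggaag
rno-miR-30e-5p (Mir30e, chr5:139637504-139637525, minus strand): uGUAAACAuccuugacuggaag
rno-miR-30c-5p (Mir30c1, chr5:139634505-139634527, minus strand, and Mir30c2, chr9:33253695-33253717, plus strand): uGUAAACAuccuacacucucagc
rno-miR-384-5p (Mir384, chrX:74490939-74490961, minus strand): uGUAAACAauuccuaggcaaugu

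rno-miR-30a-5p and rno-miR-30e-5p differed at 1 of 22 positions, C13U, counted from the 5′ end with the base of rno-miR-30a-5p first. rno-miR-30c-5p had the same first 12 bases as both, and differed from each at 5 of 22 positions. rno-miR-384-5p was the only other listed miRNA with this seed among those with a mature sequence. Its first 8 bases were those of rno-miR-30a-5p, rno-miR-30c-5p and rno-miR-30e-5p. It differed from these members at 10 of 22, 12 of 23 and 11 of 22 positions, in that order. rno-miR-30b-5p and rno-miR-30d-5p, without a sequence, could not be compared. The division of reads that fit more than 1 miRNA is not given in the sources used here. rno-miR-299a-3p and rno-miR-299b-3p had equal counts in all 56 libraries, up to 1051 counts. rno-miR-30a-5p and rno-miR-30e-5p, a single base apart, may share reads, and their counts are uncertain to that extent.

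rno-miR-30c-5p comes from a pair of genes, and its reads cannot be assigned to either. The hairpins are shown because the mature stretch, in capitals, is identical while the loops differ.
Mir30c1 (chr5:139634455-139634543, minus strand): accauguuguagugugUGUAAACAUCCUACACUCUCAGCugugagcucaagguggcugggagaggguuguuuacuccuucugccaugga
Mir30c2 (chr9:33253682-33253765, plus strand): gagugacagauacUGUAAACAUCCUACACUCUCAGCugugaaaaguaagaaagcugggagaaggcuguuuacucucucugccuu

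In the annotation, Mir30c1 and Mir30e are neighbours within the span of Nfyc, a transcription factor subunit. Mir30a and Mir30c2 are neighbours on another chromosome, and Mir30b lies next to Mir30d. No 3p arm of these hairpins was listed among the counts.

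Total counts ran from 2083604 to 12468979 in 55 libraries and reached only 69628 in TBI replicate 1 at 2 m. That library still held 1808 counts of rno-miR-30a-5p and 184 of rno-miR-30b-5p, the lowest counts of these members in any library. The 5 members took between 5.03% and 9.76% of all counts (median 6.95%, n = 56).

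rno-miR-30c-5p and rno-miR-30d-5p were the most abundant members. Scaled to CPM, counts relative to a library size from TMM normalization, over all 56 libraries, the medians were 22453 CPM for rno-miR-30c-5p, 20153 for rno-miR-30d-5p, 15153 for rno-miR-30a-5p, 10889 for rno-miR-30e-5p and 962 for rno-miR-30b-5p. rno-miR-384-5p had a median of 1354 CPM. Mature miRNAs are nearly equal in length, but ligation efficiency differs between sequences, so levels of different miRNAs compare reads and not molecules. Within a library, rno-miR-30c-5p exceeded rno-miR-30a-5p in 55 of 56 libraries and rno-miR-30a-5p exceeded rno-miR-30e-5p in 56 of 56. The order of the leading pair was less fixed, with rno-miR-30c-5p above rno-miR-30d-5p in 45 of 56 libraries.

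Of the miRNAs that passed the filter on low counts, all 5 members were included at each interval. Values below are CPM on the TMM scale of the 8 libraries of an interval, each mean is given with its SD (n = 4), and log2 fold changes are TBI over sham ± SE. The plot of CPM by rat gives every value.

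**Figure D1:**
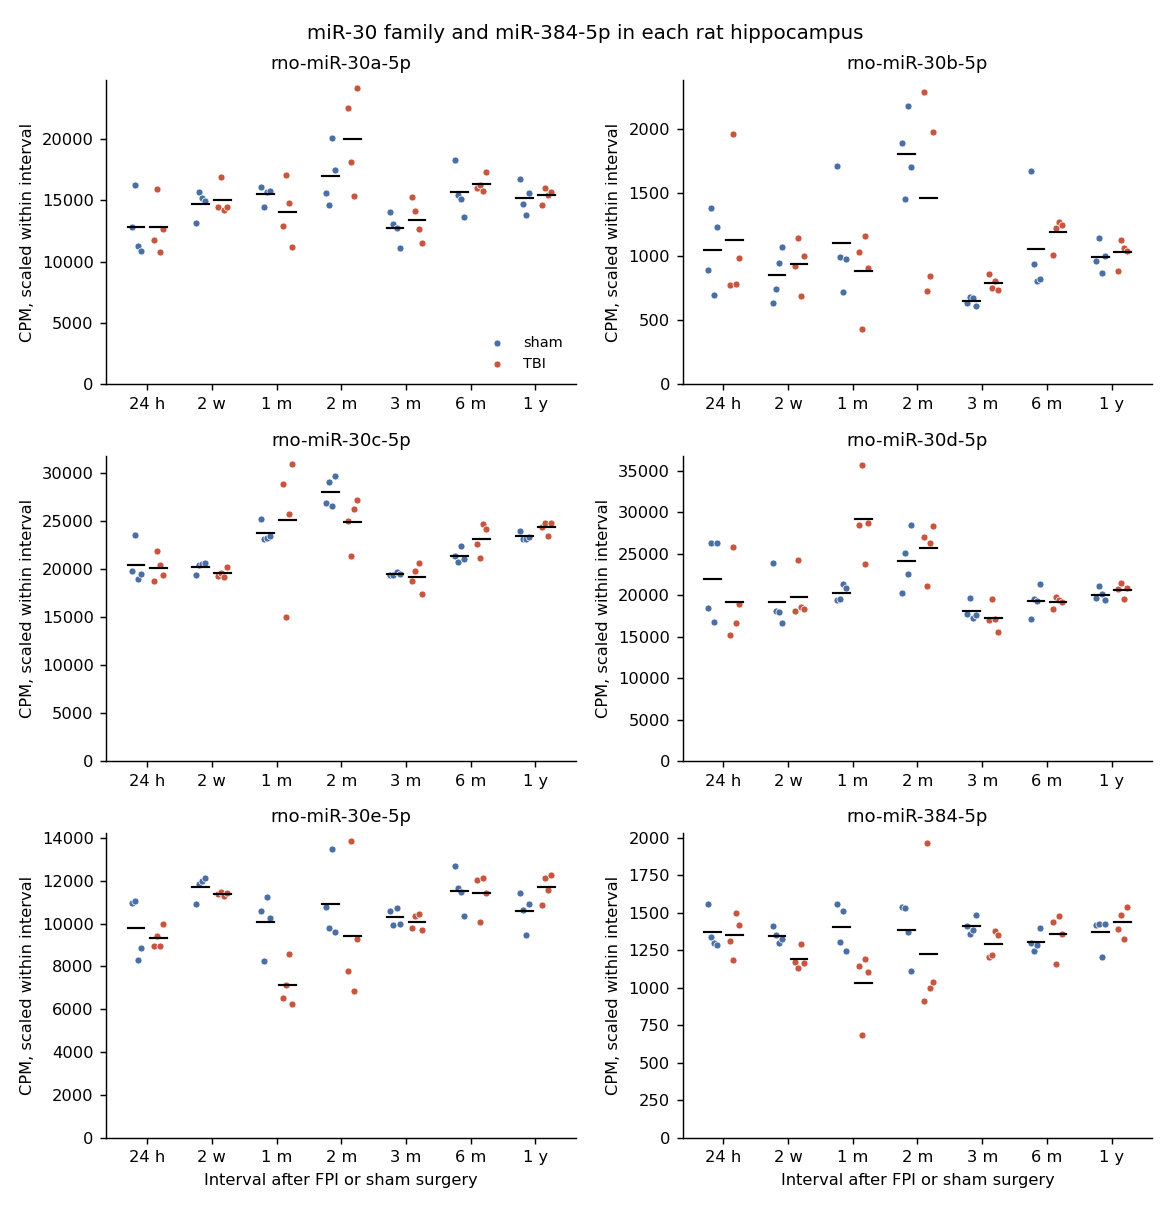
CPM (TMM scale of each interval) of the 5 miR-30 members and of rno-miR-384-5p in each rat, by interval, with sham rats in blue, TBI rats in red and a black line at the group mean (n = 4). The 4 TBI rats at 1 m lie above the 4 sham rats for rno-miR-30d-5p and 3 of 4 lie below them for rno-miR-30e-5p.

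At 1 m, rno-miR-30d-5p was higher in TBI than in sham rats and rno-miR-30e-5p was lower. rno-miR-30d-5p was at 19463, 19592, 21354 and 20905 CPM in the sham rats and at 28466, 35732, 23808 and 28772 CPM in the TBI rats. The groups did not overlap, and TBI replicate 2 was the highest. The log2 fold change was 0.52 ± 0.16, which is 1.44-fold, and was 0.39 to 0.54 when any rat was left out. rno-miR-30e-5p was at 10597, 8257, 11263 and 10244 CPM in sham and at 6505, 7138, 8584 and 6254 CPM in TBI rats. The groups overlapped, since TBI replicate 3 was above sham replicate 2. Its log2 fold change was -0.50 ± 0.17, a 0.706-fold level, and ranged from -0.71 to -0.45 with any rat left out.

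The other members at 1 m had smaller log2 fold changes. rno-miR-30a-5p averaged 14011 ± 2503 CPM in TBI and 15515 ± 709 CPM after sham surgery, for a log2 fold change of -0.15 ± 0.17, with -0.28 to -0.05 when a rat was left out. For rno-miR-30b-5p the means were 885 ± 319 and 1103 ± 424 CPM, a log2 fold change of -0.32 ± 0.30 that was -0.10 without TBI replicate 2 and -0.12 without sham replicate 1. rno-miR-30c-5p was at 28842, 15012, 25742 and 30949 CPM in the TBI rats against 23156 to 25260 CPM in the sham rats. TBI replicate 2 was the lowest of all 8 for rno-miR-30c-5p and the other 3 TBI rats were above every sham rat. The log2 fold change of rno-miR-30c-5p was 0.08 ± 0.21 with all rats and between -0.03 and 0.24 when each rat was left out, the highest without TBI replicate 2. The same-seed rno-miR-384-5p was at 1557, 1304, 1511 and 1245 CPM in sham and 1143, 683, 1190 and 1103 CPM in TBI rats, with no overlap and a log2 fold change of -0.45 ± 0.20.

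Among 240 miRNAs tested at 1 m, 0.417% passed an adjusted p of 0.05 in edgeR's quasi-likelihood test. Groups did not overlap for 10% of the 240 and for 1 of 5 members (rno-miR-30d-5p). Since the family was chosen with its direction at 1 m known, nothing is read from that count. The median log2 fold change of the 5 members was -0.15 and that of all miRNAs tested was 0.02.

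Marker miRNAs of cell types were summed at 1 m beside the members. The summed CPM of 4 leukocyte and microglia miRNAs, most of it miR-150-5p, was 971 to 1333 in TBI and 863 to 959 in sham rats. At 1 m 2 of the 4 were higher without overlap, and so were 2 of the 4 at 2 w and at 6 m. The share of all miRNAs without overlap, in either direction, was 10% (1 m), 6.61% (2 w) and 1.34% (6 m). Of the 4, miR-155-5p and miR-223-5p had low levels, with medians of 8.74 and 0.537 CPM over all libraries. The sum of the 4 overlapped between groups at 2 w, with 984 to 1319 CPM in TBI and 968 to 1122 CPM in sham rats. It also overlapped at 6 m, with 1251 to 1508 CPM in TBI and 1040 to 1253 CPM in sham rats. For the 8 neuronal miRNAs the sum was 161680 to 257436 CPM in TBI and 227994 to 289170 CPM in sham rats, most of it miR-9a-5p, and of the 8, 1 was higher and 1 lower without overlap. The 2 choroid plexus miRNAs summed to 4862 CPM in TBI replicate 2, the rat that was highest in rno-miR-30d-5p and lowest in rno-miR-30c-5p, and to 4462 CPM in sham replicate 2. The vessel list was at 792 to 1506 in TBI and 1046 to 1757 CPM in sham rats, the red blood cell list at 69.4 to 102 against 47.9 to 350.1 CPM, and the oligodendrocyte list at 1946 to 2821 against 1679 to 2907 CPM. No miRNA of these lists was at 0 in every library, and the part of these signals in the result was not tested. Hippocampal tissue is mixed, so fewer cells of a type and less miRNA per cell cannot be told apart.

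**Figure D2:**
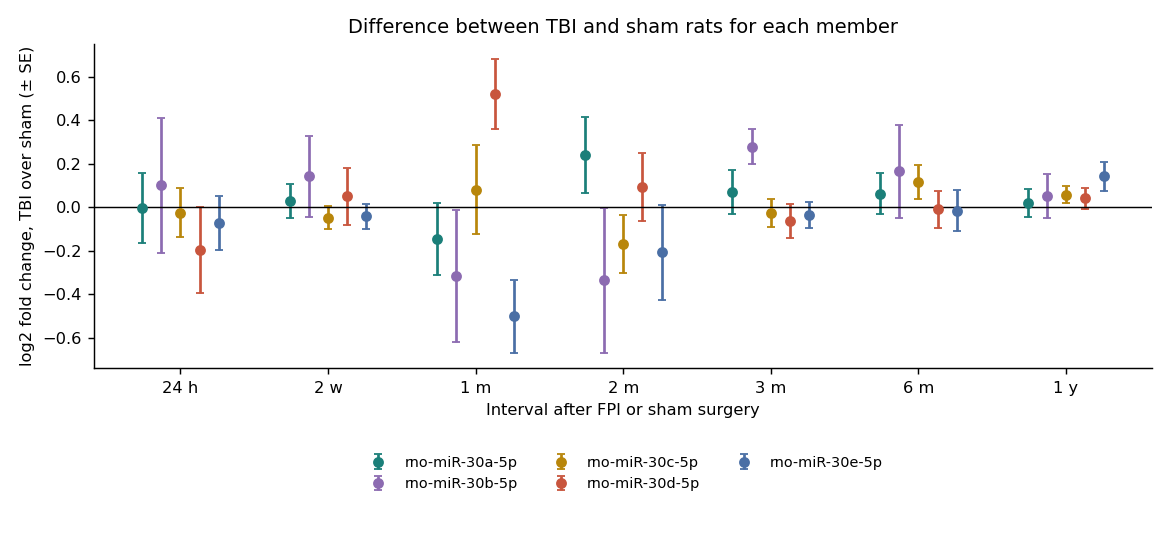
Log2 fold change (TBI over sham, vertical axis) of each member at each interval, with bars for ± 1 SE from the 8 libraries of the interval. The points at 1 m spread from -0.50 (rno-miR-30e-5p) to 0.52 (rno-miR-30d-5p), and at 2 w they lie between -0.05 and 0.14.

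Ratios within a library do not depend on how libraries are scaled. Reads of rno-miR-30d-5p per read of rno-miR-30e-5p were 1.84, 2.37, 1.90 and 2.04 in the sham rats at 1 m and 4.38, 5.01, 2.77 and 4.60 in the TBI rats. The highest of the 52 other libraries was 3.85, and their median was 1.77, so 3 of the 4 TBI rats at 1 m were above every other library. At 2 m the ratio was 3.47, 1.53, 3.85 and 3.05 in TBI rats and 1.88, 2.57, 1.67 and 2.97 in sham rats. TBI replicate 2 at 2 m, the low one of the 4, lay below every sham rat, and the groups overlapped. This ratio was chosen after its values were seen and is a description.

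**Figure D3:**
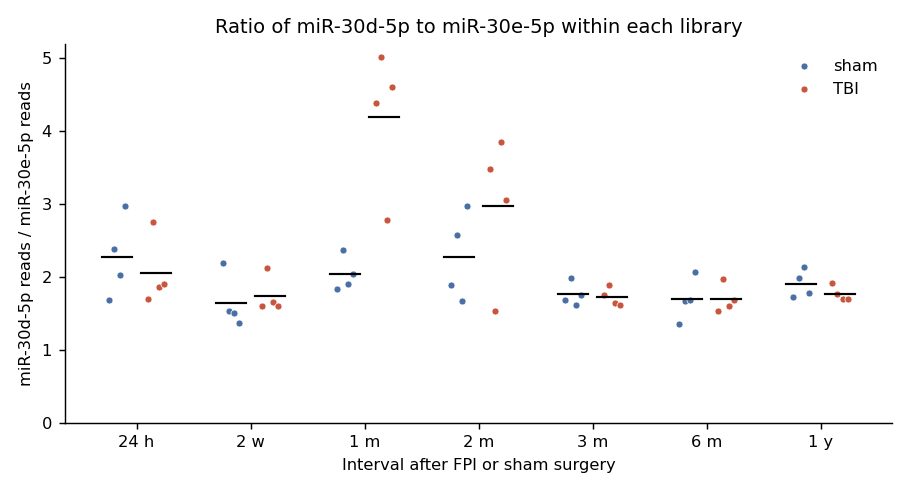
Reads of rno-miR-30d-5p divided by reads of rno-miR-30e-5p in each library (vertical axis) by interval, with sham rats in blue, TBI rats in red and a black line at the group mean. TBI libraries at 1 m range from 2.77 to 5.01 and the other 52 libraries from 1.36 to 3.85.

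At 1 m the make-up of the family differed likewise. rno-miR-30d-5p held 26.6% to 29.6% of the family's reads in sham and 32.1% to 47.4% in TBI rats, while rno-miR-30e-5p held 12.4% to 15.6% in sham and 8.01% to 11.6% in TBI rats. The summed CPM of the 5 members at 1 m was 76347 ± 1934 in TBI and 70813 ± 2970 in sham rats, a log2 ratio of the means of 0.11. On the TMM scale of the interval the sums did not overlap, with 74097 to 78120 CPM in TBI and 66494 to 73156 CPM in sham rats. Scaled over all 56 libraries by TMM, by DESeq2 size factors or by total count, the sums of the groups overlapped. At the other 6 intervals the log2 ratio of the sums was between -0.08 (24 h) and 0.06 (1 y).

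**Figure D4:**
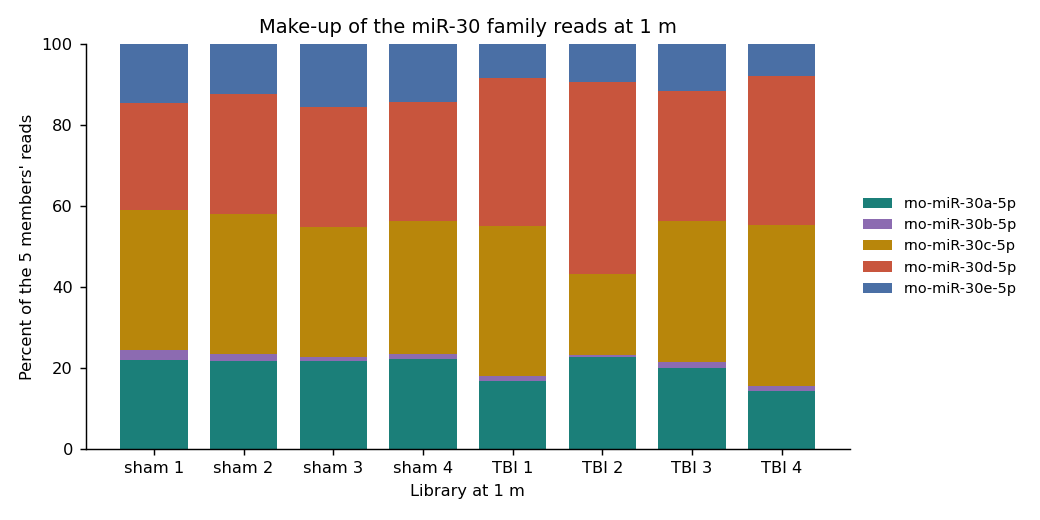
Percent of the 5 members' reads (vertical axis, stacked to 100) held by each member in the 4 sham and 4 TBI libraries at 1 m. The rno-miR-30d-5p part is 26.6% to 29.6% in sham and 32.1% to 47.4% in TBI libraries.

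The 30a and 30e pair was also set against 30c, since the sequences of the pair differ from rno-miR-30c-5p after base 12. The log2 ratio of their summed reads to those of rno-miR-30c-5p at 1 m was 0.10 ± 0.10 in sham and -0.21 ± 0.66 in TBI rats, a difference of -0.31. TBI rats spanned -0.82 to 0.69 and sham rats -0.03 to 0.21. The groups overlapped at every interval, and apart from 1 m the difference was between -0.08 (6 m) and 0.25 (2 m). Over all 10 pairs of members, groups did not overlap for 3 pairs at 1 m and 2 pairs at 3 m. The count was 1 pair each at 2 m and 1 y and 0 pairs at 24 h, 2 w and 6 m. The 3 pairs at 1 m all held rno-miR-30d-5p and the 2 pairs at 3 m both held rno-miR-30b-5p, so they are not separate results. The share over pairs of all miRNAs was not computed, and nothing is read from these counts.

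At the 6 intervals other than 1 m the question was whether any member differed between TBI and sham rats. None of the 5 members passed an adjusted p of 0.05 at any of them in edgeR's quasi-likelihood test, nor did any in its likelihood ratio test or in either test of DESeq2 (Wald, likelihood ratio). At an unadjusted p under 0.05, rno-miR-30b-5p at 3 m passed in all 4 tests, and rno-miR-30e-5p at 1 y passed in both tests of DESeq2 (0.0409 in the Wald test) but in neither of edgeR. Beside these counts, the share of all miRNAs tested that passed the adjusted threshold was 1.72% (24 h) and 0% for each of the later 5 intervals tested. The share with an unadjusted p under 0.05 in the quasi-likelihood test was 5.15% (24 h), 9.25% (2 w), 7.2% (2 m), 5.45% (3 m), 4.91% (6 m) and 9.78% (1 y). The groups of every member overlapped except at 3 m, where 1 of 5 did not. Among all miRNAs the share without overlap was 4.72% (24 h), 6.61% (2 w), 5.51% (2 m), 3.64% (3 m), 1.34% (6 m) and 4.89% (1 y).

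rno-miR-30b-5p at 3 m was at 636, 680, 672 and 614 CPM in the sham rats and at 861, 755, 807 and 736 CPM in the TBI rats. Every TBI rat exceeded every sham rat. The log2 fold change was 0.28 ± 0.08 (edgeR quasi-likelihood test, unadjusted p of 0.00675, adjusted p of 0.378). A two-sided exact permutation test of log2 CPM over the 35 splits of 8 rats gave p = 0.0286, the smallest that 4 against 4 rats can give. On the scaling over all 56 libraries, added after the values were seen, the groups overlapped. Over the alternatives the adjusted p ranged from 0.307 to 0.983, the highest in the joint fit of all 56 libraries. The summed choroid plexus miRNAs were at 18637 and 16544 CPM in sham replicates 3 and 4, against 2429 to 3821 CPM in the other 6 rats at 3 m. The rno-miR-30b-5p values of these 2 sham rats lay within 614 to 672 CPM, and those of the other 2 were 636 and 680 CPM.

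rno-miR-30d-5p and rno-miR-30e-5p, the pair that lay on opposite sides of 0 at 1 m, did not pass the adjusted threshold at the other intervals. The log2 fold change of rno-miR-30d-5p was -0.20 ± 0.20 (24 h, or -0.37 without TBI replicate 2 and -0.33 without sham replicate 3), 0.05 ± 0.13 (2 w), 0.09 ± 0.16 (2 m), -0.06 ± 0.08 (3 m), -0.01 ± 0.08 (6 m) and 0.04 ± 0.05 (1 y). For rno-miR-30e-5p it was -0.07 ± 0.12, -0.04 ± 0.06, -0.21 ± 0.22, -0.03 ± 0.06, -0.02 ± 0.09 and 0.14 ± 0.07 at the same intervals. The last, at 1 y, had an unadjusted p of 0.067, adjusted to 0.431 (edgeR, quasi-likelihood). The adjusted p of the other values of these members was 0.734 or higher.

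At 2 m rno-miR-30e-5p spread widely among the TBI rats, with 7791, 13842, 6855 and 9294 CPM, against 9621 to 13499 CPM in the sham rats. Replicate 2 was the highest of the 8 and the other 3 TBI rats lay below all 4 sham rats. Its log2 fold change at 2 m was -0.45 without TBI replicate 2 (unadjusted p of 0.0204 and adjusted p of 0.268, edgeR quasi-likelihood test), -0.08 without TBI replicate 3 and -0.05 without sham replicate 3. rno-miR-30a-5p at 2 m was at 20024 ± 4045 CPM in TBI and 16948 ± 2384 CPM after sham surgery, for a log2 fold change of 0.24 ± 0.18. rno-miR-30b-5p was at 2290, 727, 844 and 1971 CPM in TBI rats against 1447 to 2180 CPM in sham rats. TBI replicate 1, at 2290 CPM, is the shallowest library, with 69628 counts in total and 184 of rno-miR-30b-5p. The log2 fold change of rno-miR-30b-5p was -0.34 ± 0.34, and ran from -0.62 without TBI replicate 1 to -0.12 without TBI replicate 2. rno-miR-30c-5p had a log2 fold change of -0.17 ± 0.14, and 3 of 4 TBI rats lay below all sham rats. The lowest adjusted p of a member at 2 m was 0.835. Scaling by total count moved the median log2 fold change of all miRNAs at 2 m from -0.03 to -0.18, and the values there are relative to that shift.

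Of the remaining values, at 3 m the log2 fold change of rno-miR-30a-5p was 0.07 ± 0.10 and that of rno-miR-30c-5p was -0.03 ± 0.06. At 24 h and 2 w the log2 fold changes of rno-miR-30a-5p, rno-miR-30b-5p and rno-miR-30c-5p were between -0.05 and 0.14, and at 6 m and 1 y between 0.02 and 0.16. The highest of these, rno-miR-30b-5p at 6 m, moved from 0.16 to 0.47 without sham replicate 1, which stood apart from the other sham rats (unadjusted p of 0.00233 and adjusted p of 0.438, edgeR quasi-likelihood test). Without single rats rno-miR-30b-5p also ranged from 0.02 to 0.28 at 2 w and crossed 0 at 24 h. rno-miR-30c-5p at 6 m was at 23181 ± 1618 CPM in TBI and 21399 ± 764 CPM in sham rats (log2 fold change 0.12 ± 0.08, adjusted p = 0.961 by edgeR's quasi-likelihood test). The median size of the members' log2 fold change was 0.07 at 24 h and 0.05 at 2 w, against 0.12 and 0.11 over all miRNAs tested.

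rno-miR-384-5p was lower in TBI than in sham rats at 2 w without overlap, at 1175, 1130, 1292 and 1165 CPM against 1410, 1354, 1295 and 1327 CPM. The log2 fold change was -0.18 ± 0.07, with an unadjusted p of 0.026 and an adjusted p of 0.325 (edgeR, quasi-likelihood). By exact permutation (two-sided) p was 0.0286, the smallest possible. TBI replicate 3 lay just below the lowest sham rat. The log2 fold changes of rno-miR-384-5p were -0.02 ± 0.13 (24 h), -0.16 ± 0.24 (2 m), -0.13 ± 0.08 (3 m), 0.06 ± 0.10 (6 m) and 0.07 ± 0.08 (1 y). At 2 m and at 3 m, 3 of 4 TBI rats lay below all sham rats, and at 2 m the remaining TBI rat was the highest of the 8.

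Whether the injury effect differed between the 6 intervals was tested over their 48 libraries with 5 interaction terms. Of 241 miRNAs, 1.24% passed the adjusted threshold and 10.4% had an unadjusted p under 0.05 in edgeR's quasi-likelihood test. None of the 5 members passed either, and the adjusted p by edgeR's quasi-likelihood test ran from 0.593 (rno-miR-30c-5p) to 0.997 (rno-miR-30a-5p). With a single injury effect for all 6 intervals, 2.9% of miRNAs passed the adjusted threshold in the same test and 14.1% the unadjusted threshold. Again none of the members did. The pooled log2 fold changes were 0.05 ± 0.05 for rno-miR-30a-5p, 0.05 ± 0.11 for rno-miR-30b-5p, -0.03 ± 0.03 for rno-miR-30c-5p, -0.03 ± 0.06 for rno-miR-30d-5p and -0.05 ± 0.05 for rno-miR-30e-5p, with adjusted p from 0.820 to 0.928. The other tests run (the likelihood ratio tests of edgeR and DESeq2) called 0 members in both questions.

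The sham rats alone show how the family varies without injury, here in CPM on the TMM scale of the 28 sham libraries. rno-miR-30b-5p and rno-miR-30c-5p differed between intervals, and both were highest at 2 m. Of 240 miRNAs tested, 27.1% passed the adjusted threshold in edgeR's quasi-likelihood test of 6 differences, so 2 of 5 members is close to that background. rno-miR-30b-5p had a mean of 1671 ± 302 CPM at 2 m and 699 ± 34 CPM at 3 m, its lowest interval, a ratio of 2.39, with an adjusted p of 0.0143. The ranges at 2 m, 1350 to 2066 CPM, and at 3 m, 669 to 739 CPM, did not overlap, while the means at the other intervals, 901 to 1093 CPM, did not differ beyond their spread. rno-miR-30c-5p rose from 20378 ± 2448 CPM at 24 h to 25962 ± 1365 CPM at 2 m (ratio 1.27), with an adjusted p of 0.00738.

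Both calls hung on single rats. Without sham replicate 3 at 2 m the adjusted p of rno-miR-30b-5p was 0.0577, and that of rno-miR-30c-5p was 0.0545 without sham replicate 4 at 2 w and 0.0549 without sham replicate 2 at 1 y. rno-miR-30a-5p, at 0.250 with all rats, reached 0.0451 without sham replicate 2 at 24 h. rno-miR-30d-5p (adjusted p = 0.663) and rno-miR-30e-5p (adjusted p = 0.119) did not pass. Their means across intervals were 19448 to 22332 CPM and 9785 to 12403 CPM. Interval, age at death and the time of preparation cannot be told apart in this comparison.

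**Figure D5:**
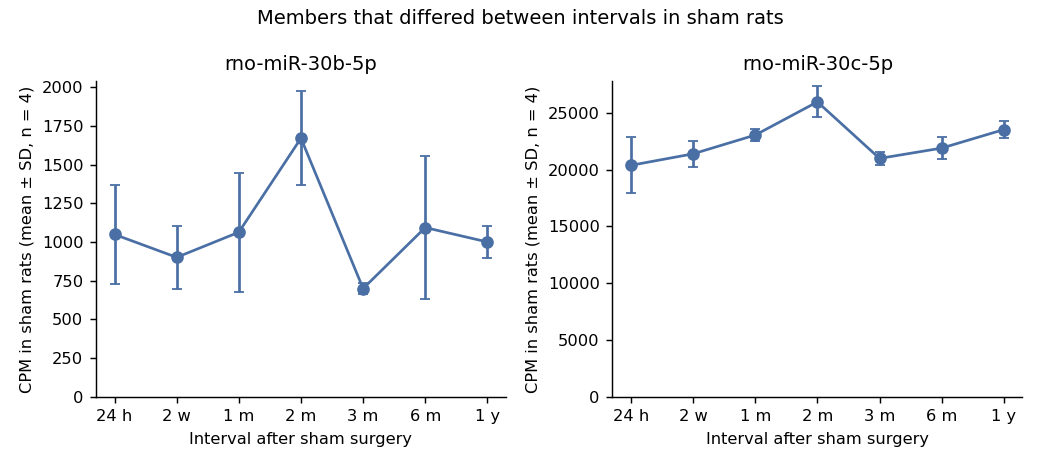
Mean CPM (TMM scale of the 28 sham libraries) of rno-miR-30b-5p and rno-miR-30c-5p in sham rats by interval, with bars for ± 1 SD (n = 4). rno-miR-30b-5p has its highest mean, 1671 CPM, at 2 m and its lowest, 699 CPM, at 3 m.

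The spread between rats was widest for rno-miR-30b-5p at 6 of 7 intervals among sham rats, the exception being 3 m, where rno-miR-30a-5p (9.69%) and rno-miR-30d-5p (6.13%) varied more. The coefficient of variation within a sham group ran from 4.79% to 38.5% for rno-miR-30b-5p and from 0.628% to 10.4% for rno-miR-30c-5p. In TBI groups the highest was 54.1% for rno-miR-30b-5p, 32.8% for rno-miR-30e-5p, 28.2% for rno-miR-30c-5p, 24.5% for rno-miR-30d-5p and 20.2% for rno-miR-30a-5p. For rno-miR-30e-5p the lowest was 0.794%.

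Likeness between members was described by the Pearson correlation of their log2 CPM deviations from the group mean, over 56 libraries and on the joint TMM scale. The points share library, depth and scaling, so no test is given. rno-miR-30b-5p and rno-miR-30c-5p had r = 0.55, rno-miR-30a-5p and rno-miR-30b-5p had r = 0.52, and rno-miR-30a-5p and rno-miR-30e-5p, which may share reads, had r = 0.51. rno-miR-30d-5p and rno-miR-30e-5p had r = -0.13. rno-miR-30c-5p and rno-miR-30e-5p, whose genes are neighbours within Nfyc, had r = 0.11. rno-miR-30b-5p and rno-miR-30d-5p, whose genes also lie side by side, had r = 0.20. The neighbours rno-miR-30a-5p and rno-miR-30c-5p had r = 0.06. Total-count scaling raised r for every pair of members, to between -0.003 (rno-miR-30d-5p and rno-miR-30e-5p) and 0.78 (rno-miR-30a-5p and rno-miR-30b-5p). Among the neighbours, r rose to 0.39 for rno-miR-30a-5p and rno-miR-30c-5p, 0.55 for rno-miR-30b-5p and rno-miR-30d-5p and 0.33 for rno-miR-30c-5p and rno-miR-30e-5p.

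Outside the family, the highest correlations were with rno-miR-582-5p for rno-miR-30b-5p (r = 0.85), rno-miR-664-3p for rno-miR-30c-5p (r = 0.77), rno-miR-3068-5p for rno-miR-30e-5p (r = 0.73), rno-miR-138-5p for rno-miR-30a-5p (r = 0.70) and rno-miR-181a-5p for rno-miR-30d-5p (r = 0.52). The next for rno-miR-30b-5p were rno-miR-124-5p (r = 0.84) and rno-miR-345-5p (r = 0.84), and for rno-miR-30c-5p they were rno-miR-339-5p (r = 0.74) and rno-miR-582-5p (r = 0.71). rno-miR-30a-5p was followed by rno-miR-329-5p (r = 0.69) and rno-miR-29c-5p (r = 0.69), and rno-miR-30d-5p by rno-miR-145-5p (r = 0.51) and rno-miR-378b (r = 0.48). rno-miR-30e-5p was followed by rno-miR-190a-5p (r = 0.68) and by rno-miR-384-5p (r = 0.65), which has the same seed. The correlation of rno-miR-384-5p with rno-miR-30d-5p was -0.36. These partners depended on the setting. rno-miR-384-5p was not among the first 3 for rno-miR-30e-5p without the shallowest library or with total-count scaling. The first partner of rno-miR-30d-5p was then rno-miR-351-5p (r = 0.55) or rno-miR-145-5p (r = 0.72), that of rno-miR-30a-5p rno-miR-329-5p (r = 0.72) or rno-miR-127-5p (r = 0.80), and that of rno-miR-30e-5p rno-miR-190a-5p (r = 0.81) with total-count scaling. For rno-miR-30b-5p rno-miR-345-5p (r = 0.90) came first with total-count scaling, and for rno-miR-30c-5p rno-miR-664-3p stayed first in both.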

How the data were processed

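Small RNA libraries of rat hippocampus were made by the authors with the NEBNext kit, sequenced on a NextSeq550 and demultiplexed with bcl2fastq 2.20.0.422 (submitters' processing notes), and reads were counted per mature miRNA with miRDeep2 against miRBase. The deposited values are raw read counts, without normalization, and the version of the genome used is not given in the sources used here. Columns were matched to samples by title, and 0 columns were left out. In R 4.3.3, edgeR 4.0.16 (filterByExpr, TMM, quasi-likelihood test, Benjamini-Hochberg adjustment over all miRNAs tested, threshold 0.05) was fitted to the 8 libraries of each interval, and to the 28 sham libraries and the 48 libraries without 1 m. Standard errors are the log2 fold change over the square root of F. Log2 CPM used a prior count of 2. Alternatives were the size factors and both tests of DESeq2 1.42.0, scaling by total count, edgeR's likelihood ratio test, a filter of 10 or more counts per library or none at all, a joint fit of all 56 libraries, and each rat left out in turn. Figures used Python 3.11.15 and matplotlib 3.10.9.

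The members and lists were chosen with earlier results of these data known. Named miRNAs were the 5 members, others with the same seed, listed 3p arms of their hairpins, and for each member the 3 miRNAs outside the family most like it among 239 that passed the filter. Marker lists are given as sums. Simulated counts with 60 changed miRNAs per interval (220 to 240 miRNAs tested) gave 18 to 28 of 30 changes of 1 log2 unit and 28 to 30 of 30 changes of 2. Smaller changes were not simulated, so how often changes of the size seen in the members would be called is not known. No pair of libraries of a group agreed within sampling noise (84 pairs, lowest chi-square per degree of freedom 18.7). Nothing in the labels states how the samples of a group were drawn, so p-values measure the spread between these samples.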

Additional observations from a re-analysis of the deposited data

Results flagged for a closer look

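Of 84 groups of 4 rats (5 members and rno-miR-384-5p, 7 intervals, 2 treatments), 7 held a rat that stood apart from the other 3 by Dixon's 95% limit, where chance alone gives about 1 in 20, or 4.2 groups. At 2 w, TBI replicate 2 was high in rno-miR-30a-5p, at 16922 CPM against 14211 to 14486, and in rno-miR-30d-5p, at 24242 CPM against 18133 to 18646. Sham replicate 1 was high in rno-miR-30b-5p at 6 m, at 1665 CPM against 811 to 943. rno-miR-30c-5p was low in sham replicate 1 at 2 w, at 19367 CPM against 20432 to 20612, and high in sham replicate 1 at 1 m, at 25260 CPM against 23156 to 23467. rno-miR-384-5p was high in TBI replicate 2 at 2 m, at 1966 CPM against 909 to 1040, and low in sham replicate 3 at 1 y, at 1207 CPM against 1417 to 1427. The cause of these values was not tested.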

How the results depend on the processing

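Counts of called members stayed at 0 for TBI against sham at the 6 intervals other than 1 m, and for the interaction and pooled questions, under each alternative run, including every rat left out. In the sham course 2 members were called under each scaling, filter and test, and 1 to 3 when a rat was left out. Signs changed under total-count scaling at 24 h for rno-miR-30a-5p (0.0312), rno-miR-30c-5p (0.0040) and rno-miR-384-5p (0.0051), and at 6 m for rno-miR-30d-5p (0.0062). Leaving out a rat gave ranges across 0 at 24 h for rno-miR-30a-5p (-0.11 to 0.11), rno-miR-30b-5p (-0.30 to 0.25), rno-miR-30c-5p (-0.085 to 0.025) and rno-miR-384-5p (-0.072 to 0.057), at 2 w for rno-miR-30a-5p (-0.044 to 0.059) and rno-miR-30d-5p (-0.069 to 0.17), at 3 m for rno-miR-30a-5p (-0.034 to 0.14) and rno-miR-30c-5p (-0.064 to 0.016), at 6 m for rno-miR-30d-5p (-0.065 to 0.046) and rno-miR-30e-5p (-0.058 to 0.042), at 1 y for rno-miR-30a-5p (-0.023 to 0.078) and rno-miR-30b-5p (-0.0077 to 0.15), and in the pooled fit for rno-miR-30b-5p (-0.0083 to 0.11) and rno-miR-30d-5p (-0.048 to 0.0015). All these are log2 fold changes, and none passed the test; the cause was not tested. Sample titles carry a number after the letter S, whose meaning is not given. At 1 y sham and TBI titles share these numbers. The deviations of same-numbered samples there from their group means had r = 0.06, -0.17, 0.33 and -0.02. The fit at 1 y with this number as a block called 0 members. At the other 6 intervals, 1 m included, each number belonged to a single treatment, so number and treatment cannot be told apart. The numbers at 1 m and 2 m were higher than those of every other interval, and their part in the values was not tested. Scaled over all 56 libraries, an alternative added after seeing the data, groups failed to overlap in 1 member and interval instead of 2.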
